A study of Bos taurus with 8 samples.

Results

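The 2 strands of bovine miR-21, bta-miR-21-5p and bta-miR-21-3p, were followed through small RNA libraries of rumen fluid. They were found by name in the table of each library and are 2 of the 565 miRNA entries that the tables list, 399 of which are bovine. The fluid came from 4 non-lactating, ruminally cannulated Holstein cows, first on a forage diet without concentrate (grass silage, corn silage and hay) and then, after a gradual change, on a high-grain (HG) diet with 65% concentrate. The HG samples were taken on the first day at 65% concentrate, so they do not stand for cows long on that diet. GEO's labels give 4 libraries per diet, numbered 1 to 4 on each, and a number was read as standing for 1 cow on both diets. Each cow was sampled on both diets in the same order and no group among these libraries stayed on forage, so the diet and the time of sampling cannot be told apart. Rumen fluid holds no tissue of its own, and its host RNA can come from shed epithelium, blood cells or saliva. In such a mixture, fewer cells of a type and less RNA per cell cannot be told apart.

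A miRNA hairpin is cleaved by Dicer into a duplex of strands, the 5p strand from its 5′ arm and the 3p strand from its 3′ arm. As a rule one of them, the guide, is loaded into an Argonaute protein and directs the repression of mRNAs, whereas the passenger strand is released and degraded. The 5p strand of miR-21 is the usual guide. It is abundant in many cell types and rises with inflammation and proliferation. The ratio of both strands in a library is therefore a measure of how unequally the arms are retained.

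Both strands lay on chromosome 19 of the bovine assembly UMD3.1, on the plus strand. The deposited tables placed bta-miR-21-5p at chr19:11033079-11033102 (24 bases) and bta-miR-21-3p at chr19:11033118-11033139 (22 bases), with 15 bases of the hairpin's loop between them. In the gene table of the newer assembly ARS-UCD2.0, used for neighbours alone, the miRNA gene MIR21 lies between VMP1, which encodes a membrane protein of autophagy, and TUBD1, which encodes delta-tubulin. The tables list no other entry with the same reads as either strand and no human miR-21 entry. Their second count, in which a read is divided among the places it maps to, was 0.5 times the reads of each strand to within 1 read, and the tables do not say with what the reads were shared.

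The libraries held 300116 to 522804 miRNA reads, the denominator of all shares given here. These made up 6.67% to 29.3% of all reads of a library on the forage diet and 8.59% to 27.8% on the HG diet. HG replicate 2 stood apart from the other 7 libraries in many miRNAs, and results that rest on it are given with and without it. The labels name no batch. A confidence interval of a single library is an exact Clopper-Pearson interval (95%) that covers counting error alone, as reads copied by PCR do not each stand for a molecule of their own.

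Bta-miR-21-5p was among the most abundant miRNAs of rumen fluid on both diets. It had 58716, 62596, 53429 and 39221 reads in forage replicates 1 to 4. In HG replicates 1 to 4 it had 36240, 51919, 45863 and 44867 reads. These counts also reflect how deeply each library was read. As a share of miRNA reads, the forage libraries held 11.88%, 11.97%, 11.72% and 11.82%, and the HG libraries 12.1%, 15.4%, 11.7% and 11.6%. All libraries except HG replicate 2 thus lay within 11.6% to 12.1%, and the ranges of both diets overlapped. The mean was 11.8% ± 0.109 (SD, n = 4) for forage and 12.7% ± 1.84 (SD, n = 4) for HG, and 11.8% ± 0.262 (SD, n = 3) for HG without HG replicate 2. The interval of HG replicate 2, 15.3% to 15.6%, did not overlap that of any other library, of which HG replicate 1 had the highest upper bound (12.2%).

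At this depth the SD from counting reads is small, and the spread is set beside it as a description only. On the forage diet the SD of 0.109 percentage points was 2.22 times the SD of 0.0489 expected from counting alone. Among the 3 HG libraries other than HG replicate 2 the SD of 0.262 was 4.83 times the counting SD of those libraries (0.0541), and over all 4 HG libraries the SD of 1.84 was 32.7 times theirs (0.0562).

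Bta-miR-21-3p was read in every library, but in few copies. The forage libraries held 7, 10, 5 and 4 reads, and the HG libraries 5, 3, 3 and 6. The 43 reads in all were 13.4 reads per 1000000 miRNA reads (RPM; interval 9.66 to 17.99). In RPM of miRNA reads, forage replicates 1 to 4 had 14.2, 19.1, 10.96 and 12.1, and HG replicates 1 to 4 had 16.7, 8.92, 7.68 and 15.5. The values of the diets overlapped, and the interval of each library covered the values of most others. Forage libraries averaged 14.1 ± 3.62 RPM (SD, n = 4) and HG libraries 12.2 ± 4.54 RPM (SD, n = 4). The SDs from counting alone were 5.74 and 5.86 RPM, set beside these as a description only. The entry met the minimum of 10 reads in at least 1 library through forage replicate 2 alone, with exactly 10 reads, while the next highest library had 7.

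**Figure D1:**
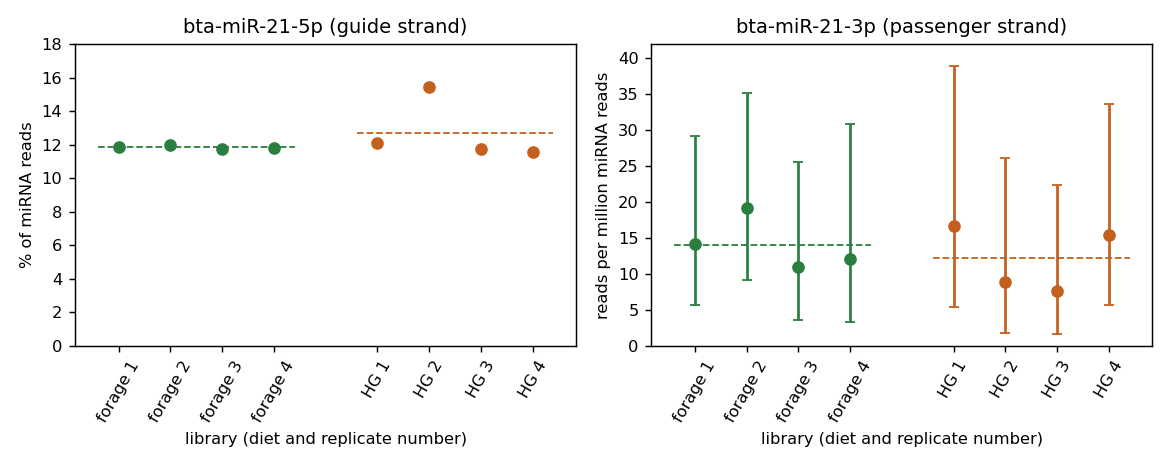
Level of each strand of miR-21 in the 8 rumen fluid libraries, as % of miRNA reads for bta-miR-21-5p (left) and as RPM of miRNA reads for bta-miR-21-3p (right). Points are libraries with exact 95% intervals for counting error (on the left smaller than the points), and dashed lines are diet means. The guide strand lies between 11.6% and 12.1% in 7 libraries and at 15.4% in HG replicate 2, whereas the intervals of the passenger strand overlap throughout.

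Among the bovine entries listed, bta-miR-21-5p ranked 2 by reads summed over the 8 libraries, with 392851. Above it stood bta-miR-451, a miRNA of red blood cells, with 532591 reads, and below it bta-miR-143, a miRNA of smooth muscle and fibroblasts, with 199669. In the forage libraries bta-miR-21-5p had 0.690 to 0.695 times the reads of bta-miR-451, and in HG replicates 1, 3 and 4 it had 0.687 to 0.729 times. The order turned in HG replicate 2, with 1.22 times the reads of bta-miR-451 on bta-miR-21-5p. Bta-miR-21-5p had 1.83 to 2.04 times the reads of bta-miR-143 in all 8 libraries, HG replicate 2 included (1.92 times). In the divided reads, bta-miR-143 kept all 199669 of its reads and bta-miR-21-5p kept 196428, which put bta-miR-21-5p at rank 3. Bta-miR-21-3p shared rank 262 of 399 with bta-miR-196b, a miRNA of a HOX gene cluster, at 43 reads, and was followed by bta-miR-137, a miRNA known from neurons, with 41. Within single libraries its rank ran from 238 to 277.

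Relative to all reads of a library, miRNA or not (RPM of all reads), bta-miR-21-5p varied much more. It was 34822, 19641, 20343 and 7887 RPM in forage replicates 1 to 4, and 11704, 13321, 32588 and 9936 RPM in HG replicates 1 to 4. These values varied several-fold within each diet and overlapped between diets. They followed the part of each library that was miRNA (Pearson's r = 0.995 over 8 libraries, a description, since both quantities contain the same reads). Forage libraries averaged 20673 ± 11028 RPM (SD, n = 4) and HG libraries 16887 ± 10558 RPM (SD, n = 4). What the other reads were was not analysed here.

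**Figure D2:**
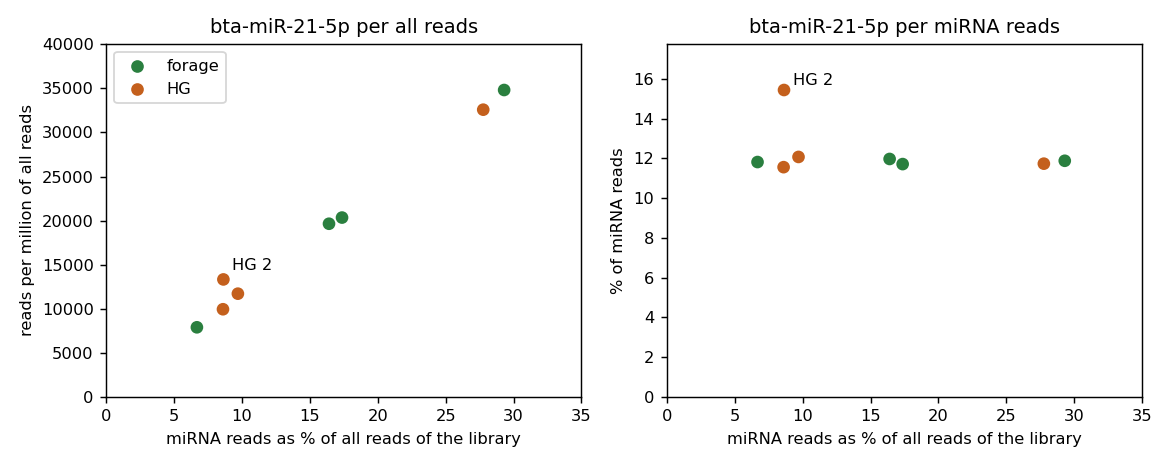
Level of bta-miR-21-5p in each library against miRNA reads as % of all reads, as RPM of all reads (left) and as % of miRNA reads (right). On the left the points climb from 7887 to 34822 RPM with the miRNA part of the library, and on the right they stay between 11.6% and 12.1% except for HG replicate 2 at 15.4%.

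The tables also count the distinct read sequences behind each entry, which differ in their ends, by mismatches or by sequencing errors. Bta-miR-21-5p was read as 185 to 227 distinct sequences on the forage diet and 191 to 213 on the HG diet. The number rose with its reads (Pearson's r = 0.879 over 8 libraries, a description). With a median of 242 reads per distinct sequence it stood below bta-miR-451 (265) and above bta-miR-143 (134), bta-miR-26a (153) and bta-let-7f (129), the other entries among the 5 with most reads. HG replicate 2, with 200 distinct sequences and 260 reads for each, lay inside the range of the other libraries, 190 to 276. Bta-miR-21-3p was read as 1 to 3 distinct sequences, with 2 to 4 reads for each.

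The guide strand far outnumbered the passenger strand in every library. The reads of bta-miR-21-5p were 8388, 6260, 10686 and 9805 times those of bta-miR-21-3p in forage replicates 1 to 4. In HG replicates 1 to 4 the factor was 7248, 17306, 15288 and 7478. The 2 highest values, HG replicates 2 and 3, rest on 3 reads of the 3p strand each. For HG replicate 2 the interval of the factor was 5922 to 83923, which covers the factor of every other library. Over all 8 libraries the summed reads gave a factor of 9136 (interval 6782 to 12624), or 0.0109% of the reads of both strands on the 3p strand.

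The log2 arm ratio averaged 13.07 ± 0.34 (SD, n = 4) for forage and 13.42 ± 0.66 (SD, n = 4) for HG. The difference of 0.35 was within the spread of the libraries (exact permutation test over 70 splits, two-sided, p = 0.371; smallest possible p = 0.0286). The ratio was higher on the HG diet in 2 of the 4 cows. Leaving out HG replicate 2 gave a difference of 0.13, and leaving out forage replicate 2 gave 0.19. HG replicates 1 and 4 also moved it by over 1.5 times, to 0.54 and 0.53 when left out, and HG replicate 3 to 0.18. In summed reads, the 3p strand made up 0.0122% (interval 0.00794% to 0.0178%) of both strands on the forage diet and 0.00950% (interval 0.00554% to 0.0152%) on the HG diet.

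**Figure D3:**
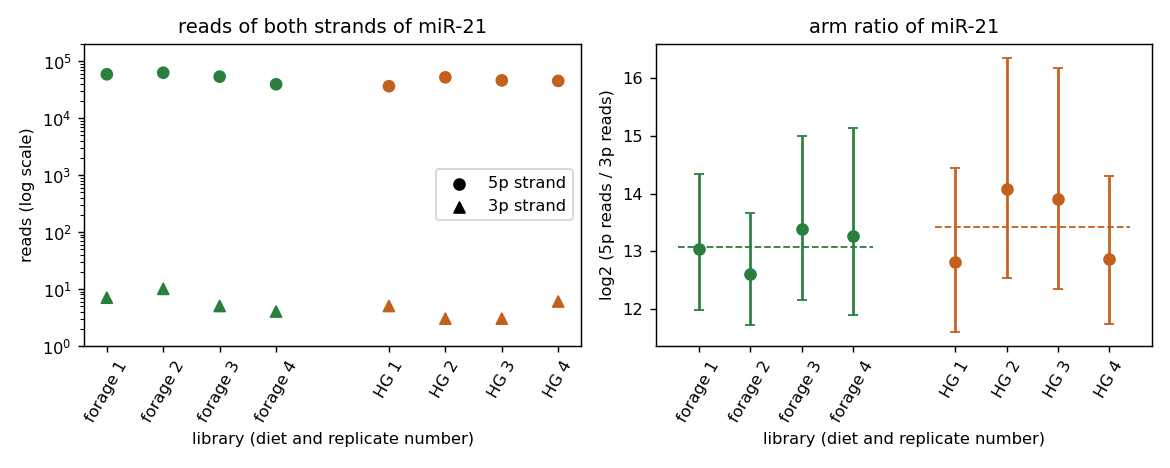
Reads of both strands of miR-21 by library on a log scale (left) and the log2 ratio of 5p to 3p reads (right). Points on the right are libraries with exact 95% intervals for counting error, and dashed lines are diet means. The 3p strand has 3 to 10 reads against 36240 to 62596 of the 5p strand, and all intervals of the ratio overlap.

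To place this ratio, it was computed from summed reads for the bovine hairpins that had both arms listed by name and above the minimum. There were 22, of which 11 had more reads on the 5p arm and 11 on the 3p arm, with a median log2 ratio of the major to the minor arm of 2.36. With 13.16, miR-21 ranked first of them. Next came miR-27a with 8.91 (31195 reads on 3p, 65 on 5p), a miRNA of a cluster with miR-23a and miR-24, then let-7a with 7.19 and miR-425 with 6.04. Hairpins whose minor arm had too few reads are not in this count. Since the minor arm must reach 10 reads in 1 library, the reads of the major arm bound the ratio that a hairpin can show. The major arm of miR-21 had 392851 reads, and the next highest were let-7a with 100055 and miR-142 with 35176. The first place thus depends in part on how abundant miR-21 is. When all 32 hairpins with reads on both arms were taken, bta-miR-10174 came first with 13.28, on 2 reads of its minor arm, and miR-21 ranked 2. In miR-27a the major arm had 378 times the reads of the minor arm on the forage diet and 693 times on the HG diet, in let-7a 161 and 130 times, and in miR-425 69.9 and 61.0 times. No test of diet was run on these.

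**Figure D4:**
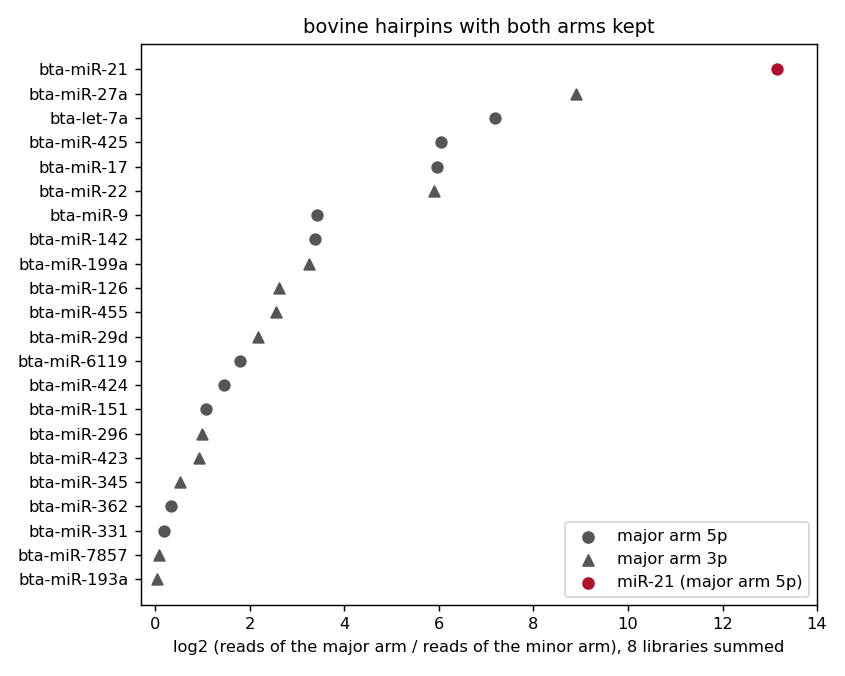
Log2 ratio of the reads of the major to those of the minor arm, summed over 8 libraries, for the 22 bovine hairpins with both arms above the minimum of 10 reads in at least 1 library. Circles are hairpins with more 5p reads and triangles those with more 3p reads. miR-21, in red, lies at 13.16, apart from miR-27a at 8.91.

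Whether the diet changed either strand was tested with edgeR (quasi-likelihood), with TMM scaling, a block for the cow and p-values adjusted by Benjamini-Hochberg over the 377 entries that met the minimum. Over all entries 0% were called at an adjusted p under 0.05, and 2.39% (9 entries) had an unadjusted p under 0.05. Entries with identical values count separately here, such as bta-miR-450a and hsa-miR-450a-5p, or bta-miR-2285ak-5p and bta-miR-2285bh, all among the 9. DESeq2 also called 0 entries, with 3 at an unadjusted p under 0.05. Neither strand of miR-21 was among the 9. The p-values measure the spread between these libraries.

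In TMM-normalized counts per 1000000 (CPM), bta-miR-21-5p stood at 76414, 78277, 76211 and 76607 on the forage diet and at 78175, 115543, 75711 and 75331 on the HG diet. The CPM total counts a read at each entry it maps to, human entries included, so CPM and RPM of miRNA reads differ in level. HG replicate 2 was high and the other HG libraries lay around the forage libraries. The log2 fold change of HG over forage was 0.14 (standard error 0.10, 95% interval −0.12 to 0.40; edgeR adjusted p = 0.788). By cow number, the log2 ratio was 0.03, 0.56, −0.01 and −0.02 for 1 to 4, so that bta-miR-21-5p was higher on the HG diet in 2 of 4 cows. Without cow 2 the change was −0.00110 (interval −0.03 to 0.03; edgeR adjusted p = 0.983).

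In CPM, bta-miR-21-3p stood at 9.11, 12.5, 7.13 and 7.81 on the forage diet and at 10.8, 6.68, 4.95 and 10.1 on the HG diet. Its log2 fold change was −0.18 (standard error 0.49, 95% interval −1.40 to 1.03; edgeR adjusted p = 0.910), and it was higher on the HG diet in 2 of 4 cows. The entry came into the test through forage replicate 2 alone, a library of the diet on which it was higher, and its sign was not stable. With the same entries and without cow 2 the log2 fold change was 0.08 (95% interval −1.58 to 1.73; edgeR adjusted p = 0.988), and without forage replicate 2, in a fit with no block, it was −0.01 (−1.07 to 1.06; edgeR adjusted p = 0.999). Without cow 1, 3 or 4 the change stayed below 0, at −0.35, −0.10 and −0.38. The interval over all 8 libraries leaves room for a change of more than 2-fold, so that a difference of that size was not detectable with 3 to 10 reads. The 2 strands were fitted separately, and the difference between them was tested through the arm ratio given above.

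Values as normalized by the authors, which start from divided reads, gave the same picture. Bta-miR-21-5p had 23042, 23723, 23098 and 23079 on the forage diet, and 23630, 34497, 22745 and 22494 on the HG diet. Bta-miR-21-3p had 2.35 to 3.79 on the forage diet and 1.98 to 3.91 on the HG diet, from 2 to 5 rounded reads per library. HG replicate 2 was again far above the rest for the guide strand, and forage replicate 2 lay somewhat above the other forage libraries. The values of the passenger strand overlapped between diets.

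HG replicate 2 also differed in miRNAs known from several cell types, summed here as shares of miRNA reads. The 5 stromal and smooth muscle miRNAs (such as bta-miR-143 and bta-miR-145) made up 8.97% of it, against 6.49% to 6.999% in the other 7 libraries. Most of that sum was bta-miR-143 (8.06%), and bta-miR-214 lay inside the range of the others (60.1 CPM against 36.7 to 72.2). The 7 detected of 8 epithelial miRNAs (such as bta-miR-205 and bta-miR-200a) made up 3.12%, against 2.21% to 2.28%, with bta-miR-200b inside the range of the others (1415 CPM against 1312 to 1417). Bta-miR-21-5p, at 15.4% against 11.6% to 12.1%, moved in the same direction as these. The 3 erythrocyte miRNAs (bta-miR-451, bta-miR-486 and bta-miR-144) made up 14.98% of HG replicate 2, against 19.8% to 20.6%. The 4 leukocyte miRNAs (such as bta-miR-223 and bta-miR-150) made up 1.70%, against 2.13% to 2.18%, although 1 of them, bta-miR-142-3p, was higher there (926 CPM against 626 to 713). The 2 detected of 4 striated muscle miRNAs came to 0.464%, against 0.615% to 0.736%, and the liver miRNA bta-miR-122 to 0.156%, against 0.211% to 0.266%. Bta-miR-203 is not listed, and bta-miR-133b and bta-miR-206 stayed below the minimum. Shares of one library depend on each other, and the part of these lists in the level of bta-miR-21-5p was not tested.

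In HG replicate 2 bta-miR-21-5p lay 0.60 above the median of the other 7 libraries on the log2 CPM scale. Of the 198 bovine entries with at least 10 reads in every library, 36 (18.2%) lay further up, and the median entry lay at 0.03.

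**Figure D5:**
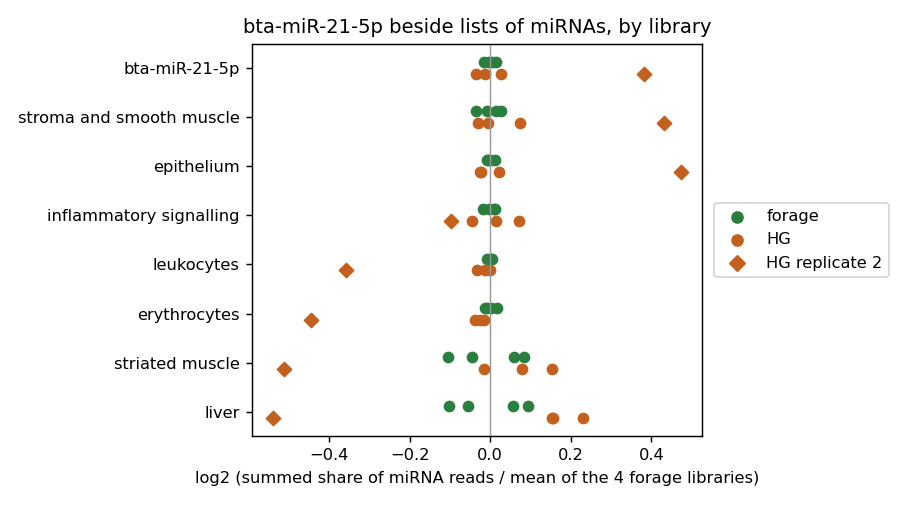
Share of miRNA reads of bta-miR-21-5p and summed shares of lists of miRNAs in each library, as log2 ratio to the mean of the 4 forage libraries. Circles are libraries by diet and diamonds are HG replicate 2. In HG replicate 2, bta-miR-21-5p lies up with the stromal and epithelial lists, while the leukocyte, erythrocyte, striated muscle and liver lists lie down.

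A list of 11 miRNAs that have been linked, like miR-21, to inflammatory signalling through NF-kB, STAT3 or AP-1 was read beside it. All 11 were detected, 0 of 11 were called higher and 0 of 11 lower on the HG diet, and 6 had a fold change above 0 and 5 below. Their median log2 fold change was 0.01, beside 0.03 over all 377 entries. Without cow 2, 0 of 11 were called, beside 0.532% of all entries in that fit (2 of 376, with values identical to each other in every library). Again 6 were above 0 and 5 below, in part other members, with a median of 0.0065 beside 0.0043 over all entries. None had an unadjusted p under 0.05. Bta-miR-146a, which dampens NF-kB signalling, had a log2 fold change of 0.14 (standard error 0.19; edgeR adjusted p = 0.830), and bta-miR-155, a miRNA of activated leukocytes, −0.12 (standard error 0.11; edgeR adjusted p = 0.798). Without cow 2 that of bta-miR-146a turned to −0.10 (standard error 0.09; edgeR adjusted p = 0.788), and that of bta-miR-155 was −0.02. The extremes were bta-miR-31, a miRNA of keratinized epithelium, with 0.31 (standard error 0.25), and bta-miR-132, known from neurons and macrophages, with −0.64 (standard error 0.31) on 6 to 33 reads per library. Without cow 2 bta-miR-31 turned to −0.02 (standard error 0.05), since it stood at 2428 CPM in HG replicate 2 against 959 to 1081 elsewhere, whereas bta-miR-132 remained below 0 (−0.55, standard error 0.30). The sum of the list ran from 1.90% to 1.94% of miRNA reads on the forage diet and from 1.86% to 2.02% in HG replicates 1, 3 and 4, and was 1.80% in HG replicate 2. Bta-miR-21-5p alone thus had more reads than all 11 together. Bta-miR-31 is also in the epithelial and bta-miR-223 in the leukocyte list.

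The bovine entries whose log2 CPM profile was most like that of bta-miR-21-5p were bta-miR-221, bta-miR-10174-3p, bta-miR-320a, bta-miR-20a and bta-miR-30a-5p. Likeness was the root mean square distance between profiles centred on their own mean over 8 libraries, among 118 entries with at least 100 reads in every library. It was 0.029 to 0.047 for these 5, beside a median of 0.19 over all 118. All 5 lay high in HG replicate 2, by 0.42 to 0.57 over their own mean, beside 0.52 for bta-miR-21-5p. When HG replicate 2 was left out, other entries came first, bta-miR-486, bta-miR-150, bta-miR-191, bta-miR-92a and bta-miR-103, at distances of 0.0096 to 0.019 (median of all 0.057). The likeness over 8 libraries thus rests on HG replicate 2. For bta-miR-21-3p the nearest entries were bta-miR-2285bf, bta-miR-374b, bta-miR-125b, bta-miR-182 and bta-miR-100 at 0.31 to 0.32, beside a median of 0.42, and bta-miR-21-5p was not among them.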

How the data were processed

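The authors demultiplexed reads with bcl2fastq 2.20, trimmed them with Skewer and assigned them with sRNAbench and Bowtie to the genome UMD3.1 and to miRBase entries of cattle and human. The authors deposited, for each library, read counts per entry (a read that maps to several entries counts in full at each), the number of distinct sequences, expected counts (reads divided among the places they map to), RPM of all reads, and a score, RPM of miRNA reads. Both deposited RPM columns were used to recover the library totals, to within 1.16 reads. The authors' normalized signal equalled, for 377 of 377 entries in each library, the rounded expected counts over a size factor (to within 0.01 reads).

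The minimum of 10 reads in any 1 library left 377 of 565 entries. Diet was tested on the whole table with edgeR 4.0.16 in R 4.3.3 (glmQLFit and glmQLFTest, TMM, two-sided), with the study's own terms, cow and diet. The standard error is the change divided by the square root of F. DESeq2 1.42.0, other scalings and filters, rounded expected counts and fits without single libraries were alternatives. The test was checked only on simulated libraries without differences between cows or an outlying library, so those cases stayed unchecked. The pairing rests on the labels: deviations of same-numbered libraries from their diet mean correlated at −0.06 to 0.15 over 169 entries (−0.15 to 0.10 for different numbers). Arm ratios were tested by exact permutation with Python 3.11.15 and scipy 1.17.1. Members, lists and tests were chosen with earlier results of these data known. Named were the 2 strands, their neighbours in rank, the 5 entries nearest in profile, the hairpins next in arm ratio and listed miRNAs. At 300116 to 522804 miRNA reads per library, 1 read is 1.91 to 3.33 RPM. Mature sequences, entries sharing a seed, papillae and 16S rRNA reads were not analysed here.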

Additional observations from a re-analysis of the deposited data

Results flagged for a closer look

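In sets of 4 libraries of 1 diet, a library was marked where its gap to the nearest other as part of the range exceeded Dixon's 95% critical value, which chance gives in about 1 of 20 sets. Of the 22 sets looked at, 5 had such a library, all for bta-miR-21-5p and in part from the same reads. HG replicate 2 was far above the other HG libraries in share of miRNA reads (15.4%), in TMM-normalized CPM (115543) and in the authors' normalized value (34497). HG replicate 3 was far above them in RPM of all reads (32588), and it was also the HG library with the largest part of miRNA reads (27.8%). Forage replicate 2 lay above the other forage libraries in the authors' normalized value (23723, against 23042 to 23098). No set of bta-miR-21-3p and neither set of arm ratios had such a library.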

How the results depend on the processing

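The diet change of bta-miR-21-5p was above 0 in 19 of 23 alternatives and past the threshold in 0 of them (edgeR or DESeq2 adjusted p = 0.569 to 0.999). Leaving out libraries gave log2 fold changes from −0.0146 to 0.210 (with the block, −0.00110 to 0.185), and those below 0 were without cow 2 (−0.00110, or −0.000258 with the entries of all 8 libraries) and, without the replicate block, without HG replicate 2 (−0.0146 or −0.00913). Without the replicate block the change was 0.165 (edgeR adjusted p = 0.693) for bta-miR-21-5p and −0.191 (0.853) for bta-miR-21-3p, and the arm ratio tested within cow numbers gave p = 0.625 (exact sign-flip test, smallest possible 0.125, so that it could make no call). The block changed no call of either strand. For bta-miR-21-3p 19 of 20 changes were below 0 (range −0.382 to 0.0764, adjusted p = 0.725 to 0.999). It fell under the minimum without cow 2 or forage replicate 2, or with 10 reads required in every library. With the entries of all 8 libraries, an alternative chosen after seeing the data, it was 0.0764 without cow 2, the reverse of the reported direction, and −0.00661 without forage replicate 2. The arm ratio difference was 0.125 to 0.544 with a library left out (exact permutation p = 0.229 to 0.771). Without cow 2, 2 entries were called (leave-one-out range 0 to 2), bta-miR-2285ak-5p and bta-miR-2285bh, each with all its 88 reads in 1 library, named after their values were seen. These 2 entries had identical values in every library, so they may stand for 1 set of reads. Per all reads, bta-miR-21-5p took 2.07% (forage) and 1.69% (HG), and bta-miR-21-3p 0.000250% and 0.000146%. Divided reads over the undivided total of miRNA reads gave 5.92% (forage) and 6.35% (HG) for bta-miR-21-5p, and 0.000704% and 0.000609% for bta-miR-21-3p. By divided reads bta-miR-21-5p ranked 3. Taking every hairpin with reads on both arms, an alternative chosen after seeing the data, put miR-21 at place 2 by arm ratio. The values of the 3p strand rest on only 3 to 10 reads per library.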
